A study of Mus musculus with 31 samples.

Results

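The 10 genes described here are Otx2, Pou3f1, Sox3, Sox4, Lef1, Foxd3, Zic2, Zic5, Sall2 and Cdh2, chosen by name as genes of the formative and primed epiblast. They are 10 of the 18194 genes measured in the series. Of these, 9 encode transcription factors, and Cdh2 encodes the adhesion protein N-cadherin, so the set is called here the formative and primed epiblast genes. Each gene was read from 1 probe set, the one annotated to that symbol alone with the highest mean over all 31 arrays, and no filter on low values removed any of them. RNA was measured on Affymetrix arrays in 4 groups of mouse cells derived by Sendai virus reprogramming of tail-tip fibroblasts. The groups were Nos3-/- embryoid bodies at day 11 (n = 6), control embryoid bodies at day 11 (n = 9), Nos3-/- induced pluripotent stem cells (iPSCs) at day 0 (n = 6) and control iPSCs at day 0 (n = 10). Nos3 encodes endothelial nitric oxide synthase, the source of nitric oxide in vessel walls, and by its title the series asks whether such cells carry signatures of heart disease that begins in utero. The Nos3-/- fibroblasts came from B6.129P2-Nos3tm1unc/J mice and the control fibroblasts from wild type CD1 mice, all adult males, so the missing Nos3 allele and the strain cannot be told apart in any genotype difference below. At day 0 the cells grew on growth-arrested mouse embryonic fibroblasts (feeder cells), whose RNA is in the day 0 samples, and the embryoid bodies formed in microwells and differentiated without added lineage factors. The labels do not say how many mice, cell lines or clones stand behind the arrays, so the spread that the p-values measure may be technical.

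Mouse pluripotent cells pass from a naive state, like that of the early inner cell mass, through a formative state to a primed state, like that of the epiblast just before gastrulation. Otx2 and Pou3f1 are induced early in this transition and act beside Pou5f1 at enhancers that are newly used, while Fgf5, Sox3, Lef1 and the Zic genes mark later epiblast. Most of these genes are used again afterwards, in neural ectoderm, neural crest or mesoderm, so their RNA in an embryoid body can come from several kinds of cells. In bulk RNA, fewer cells of a type and less RNA per cell cannot be told apart.

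The values are log2 intensities from the RMA method, which corrects, normalises and summarises the probes of each set, and a difference of 1 is a 2-fold difference. The number of arrays limits the precision. Array medians lay between 6.13 and 6.23 on the 31 arrays. Markers set the labels against the data. The pluripotency factor Pou5f1 averaged 12.37 ± 0.32 in Nos3-/- embryoid bodies, 11.66 ± 0.43 in control embryoid bodies, 12.69 ± 0.57 in Nos3-/- iPSCs and 12.56 ± 0.16 in control iPSCs. The mean of 10 cardiomyocyte genes was 8.01 ± 1.44, 8.59 ± 0.99, 5.93 ± 0.23 and 6.21 ± 0.26 in the same groups. Nos3 itself was read at 6.88, 7.05, 6.98 and 6.65 in these groups, a day 0 difference of 0.33 (adjusted p = 0.0295) and a day 11 difference of -0.17 (adjusted p = 0.386). The sources used here do not say whether its probe set lies within the deleted part, so it checks no label. Within a group, 3 arrays had the lowest median correlation with the others, namely Nos3-/- embryoid body replicate 3 (0.961) and Nos3-/- iPSC replicates 3 and 5 (0.975 and 0.976). Where differences of the 10 genes turned on them, values with and without them are given. Other genes were not read without them one by one.

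At day 11, Pou3f1, Foxd3 and Zic2 were higher in Nos3-/- embryoid bodies than in controls, by 1.96, 0.95 and 1.05 on the log2 scale. None of the 10 genes was lower, as 5.29% of all genes were. The 3 genes called compare with 9.7% of all genes called at day 11 in either direction and 4.41% called higher (limma, Benjamini-Hochberg adjusted p under 0.05 over all 18194 genes, as in every count below). The median difference of the 10 genes was 0.65, against a median of 0 over all genes, and 8 of the 10 were positive, against 50.1% of all genes.

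At day 0, Sox4 and Cdh2 were lower in Nos3-/- iPSCs than in control iPSCs, with log2 differences of -0.64 and -1.32, and none of the 10 genes was called higher. Leaving out the 3 arrays that stand apart, 2 were called higher, Pou3f1 at 0.80 (adjusted p = 0.0384) and Lef1 at 0.73 (adjusted p = 0.0303), and 3 lower, Otx2 in addition to Sox4 and Cdh2. Of all genes, 16.6% were called at day 0, with 9.17% called higher and 7.47% called lower. None of the 10 had groups without overlap at day 0, as 1.92% of all genes did. The median difference of the 10 genes was -0.40, against 0.01 over all genes, and 4 of the 10 were positive, against 51.9% of all genes. These values rest in part on Nos3-/- iPSC replicate 5, the lowest of its group for 10 of the 10 genes. Without it every day 0 difference rose, to -0.73 in Otx2, -0.12 in Zic2, -0.19 in Sall2 and 0.64 in Pou3f1 among others. The median without it was not taken.

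Over time, 4 of the 10 genes rose and none fell in Nos3-/- cells between day 0 and day 11, with 31.1% of all genes called in either direction, 13% higher and 18.1% lower. These were Sall2, Sox4, Cdh2 and Pou3f1. In control cells 2 genes rose, Lef1 and Sall2, and 5 fell, Otx2, Sox3, Foxd3, Zic2 and Pou3f1, with 34.2% of all genes called, 16% higher and 18.2% lower. The median change of the 10 genes was 0.69 in Nos3-/- cells and -0.59 in control cells, against -0.06 and -0.03 over all genes. Without Nos3-/- iPSC replicate 5, 2 of the 10 and 4391 of all genes were called in Nos3-/- cells. The change was then 0.39 in Zic2, 0.55 in Lef1 and -0.46 in Otx2, against 0.63, 0.76 and -0.08 with all arrays. Centring each array on its median turned the split of all genes in Nos3-/- cells to 1982 higher and 4441 lower, against 2359 and 3299 as deposited.

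The genotype difference in the change over time, which is the day 11 difference minus the day 0 difference, was positive for 9 of the 10 genes, against 46.5% of all genes, with a median of 0.90. The 1 gene called was Pou3f1, at 1.64 (SE 0.41, adjusted p = 0.0408), where 1.24% of all genes were called, 0.522% higher and 0.715% lower. Without Nos3-/- iPSC replicate 5 none of the 10 was called, and calls over all genes fell from 225 to 88. Pou3f1 was then 1.32 (adjusted p = 0.0802), Otx2 1.27 and Zic2 1.17. The 2 genotype comparisons, the 2 time comparisons and this difference share arrays, so they are not separate pieces of evidence.

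**Figure D1:**
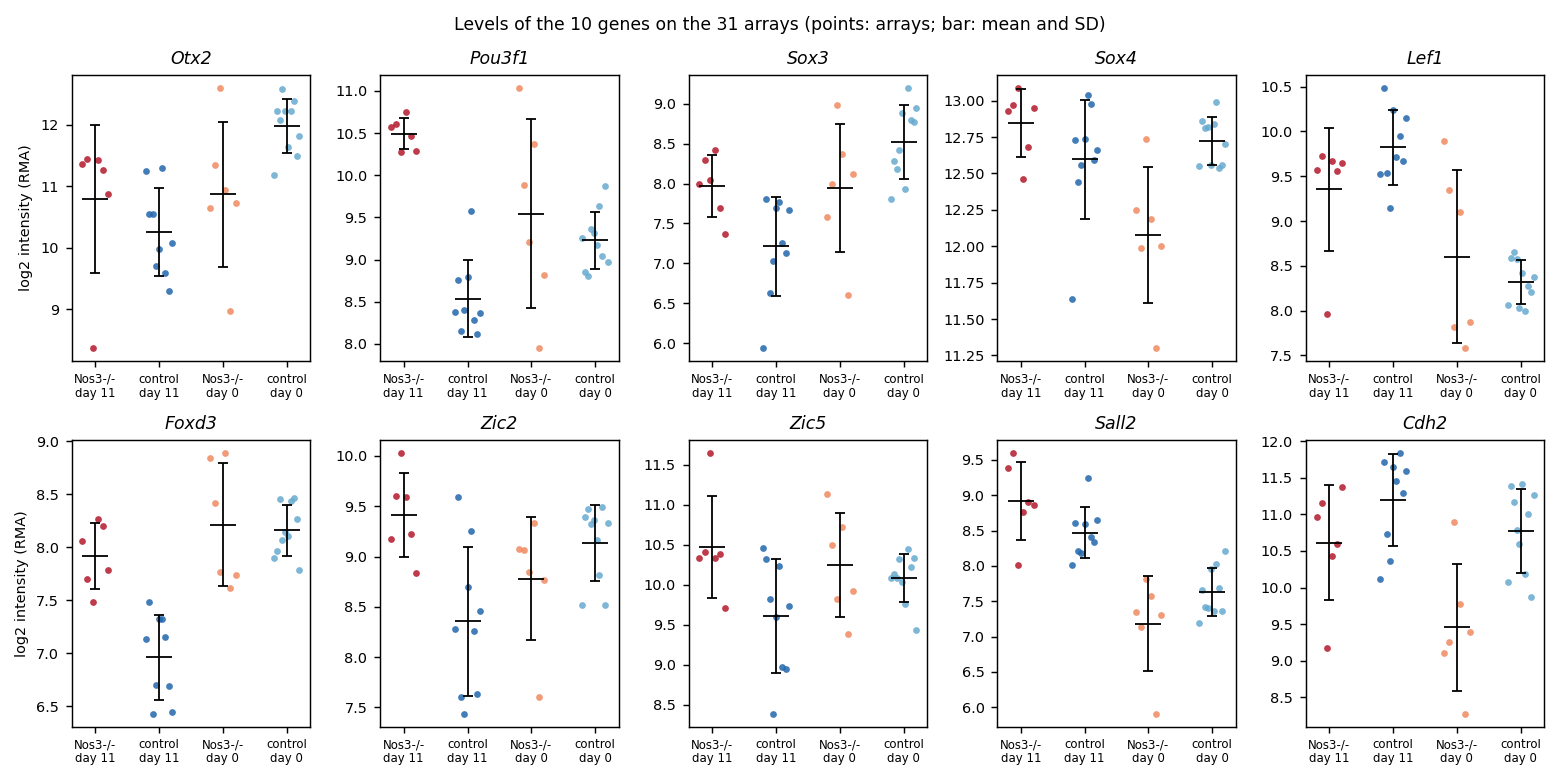
Log2 RMA intensity of each of the 10 genes (1 panel each, with its own axis) on every array, by group; each point is 1 array and the bar gives the group mean with its SD (n = 6, 9, 6 and 10 from left to right). The Pou3f1 points of Nos3-/- day 11 all lie above those of control day 11, at 10.28 and above against 9.58 and below.

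**Figure D2:**
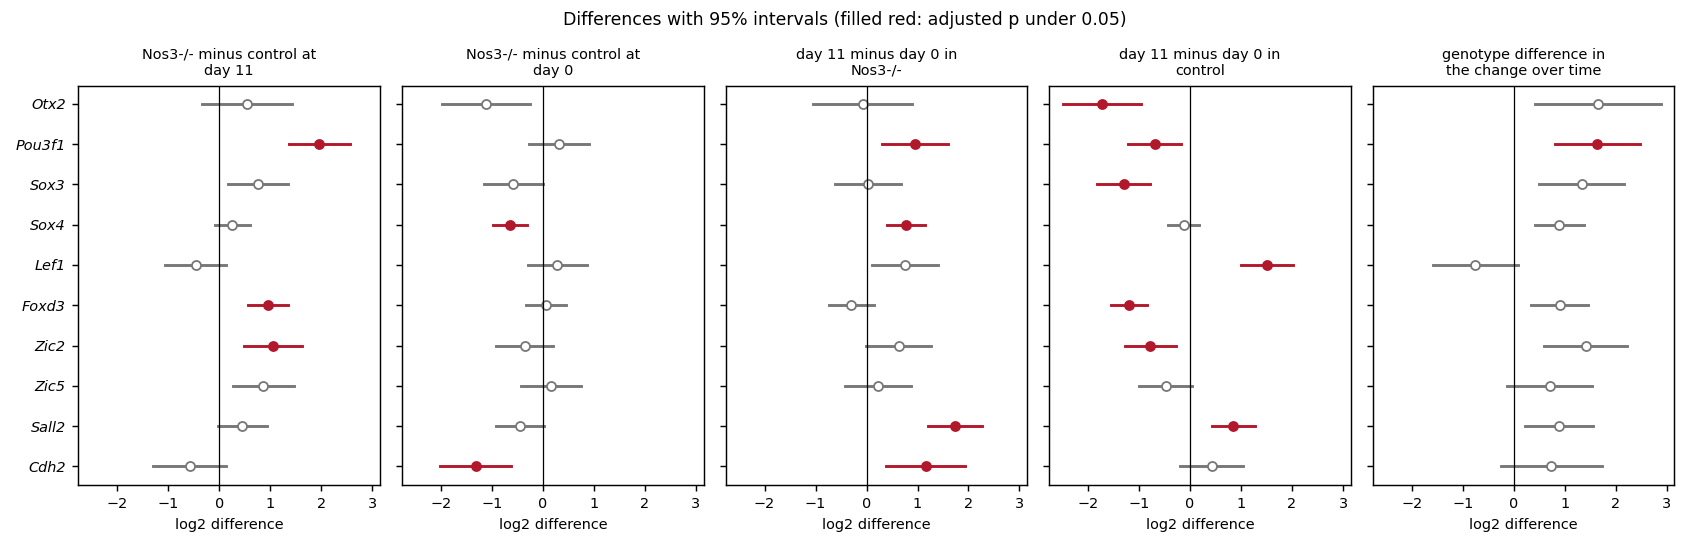
Log2 differences of the 10 genes in the 5 comparisons, with 95% intervals of the limma fit. Filled red points passed an adjusted p under 0.05, and all points but that of Lef1 lie above 0 in the last panel.

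Pou3f1, also called Oct6, is a POU-domain factor of the epiblast and of neural and Schwann cell development. The gene lies on chromosome 4, from 124657646 to 124660655 in GRCm38.p6, the build of all positions given here. Its level in Nos3-/- embryoid bodies had a lowest value of 10.28, a median of 10.52 and a highest value of 10.75, against 8.12, 8.38 and 9.58 in control embryoid bodies. In iPSCs these values were 7.95, 9.55 and 11.04 in the Nos3-/- group, against 8.81, 9.22 and 9.87 in the control group. At day 11 the groups did not overlap, as was so for 2.6% of all genes, while at day 0 the 6 Nos3-/- arrays reached past the 10 control arrays at both ends. The day 11 difference was 1.96 (SE 0.29, 3.89-fold, adjusted p = 2.297e-05), and the day 0 difference was 0.32 (SE 0.29, adjusted p = 0.488). That day 0 value was 0.02 without Nos3-/- day 0 replicate 1, 0.64 without replicate 5 (adjusted p = 0.117) and, past the threshold, 0.80 without the 3 arrays that stand apart (adjusted p = 0.0384). Pou3f1 rose by 0.95 in Nos3-/- cells (SE 0.32, adjusted p = 0.0244) and fell by 0.69 in control cells (SE 0.25, adjusted p = 0.0349). The day 11 call was kept in all 31 omissions of 1 array, with differences of 1.91 to 2.09. A second Pou3f1 probe set, 1422068_at, gave 1.35 at day 11 (adjusted p = 2.816e-05 over all 45101 probe sets) and 1.10 for the genotype difference in the change over time (adjusted p = 0.0663).

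The calls of Pou3f1 that involve both days turned on single arrays. The genotype difference in the change over time missed the threshold in 17 of the 31 omissions of 1 array, at 1.32 to 1.71 with adjusted p of 0.0511 to 0.0878. Those arrays were replicates 1, 2, 4, 5 and 6 of Nos3-/- day 11, replicates 3, 4, 7, 8 and 9 of control day 11, replicates 2, 5 and 6 of Nos3-/- day 0, and replicates 4, 6, 7 and 9 of control day 0. Without the 3 arrays that stand apart it was 1.20 (adjusted p = 0.066). The rise in Nos3-/- cells missed the threshold without Nos3-/- day 0 replicate 5 (0.63, adjusted p = 0.0996) or 6 (0.80, adjusted p = 0.0705), and without the 3 arrays it was 0.51 (adjusted p = 0.22). Fitted with only the Nos3-/- arrays, the rise of 0.95 had an adjusted p of 0.121. The fall in control cells missed it, at adjusted p of 0.0505 to 0.066, without any one of control day 11 replicates 1, 3, 4, 7, 8 and 9 or control day 0 replicates 4, 7 and 9, and with the probe sets of each gene averaged it was -0.52 (adjusted p = 0.0551).

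Otx2 encodes a homeobox factor that patterns the anterior embryo and the forebrain, and it lies on chromosome 14 from 48656781 to 48667644. Its lowest, median and highest levels were 8.37, 11.31 and 11.44 in Nos3-/- embryoid bodies, against 9.30, 10.08 and 11.30 in control embryoid bodies. At day 0 they were 8.97, 10.82 and 12.60 in Nos3-/- iPSCs, against 11.18, 12.14 and 12.58 in control iPSCs. The groups overlapped on both days: at day 11, 3 Nos3-/- arrays lay above all 9 controls and 1 lay below them, and at day 0, 4 Nos3-/- arrays lay below all 10 controls and 1 above. Otx2 fell by 1.73 in control cells over time (SE 0.38, 3.31-fold, adjusted p = 6.177e-04), which is the largest fall among the 10 genes in that comparison, while its change in Nos3-/- cells was -0.08 (SE 0.47, adjusted p = 0.918) and turned to 0.02 without Nos3-/- day 0 replicate 2, 0.27 without day 0 replicate 3 and 0.41 without day 11 replicate 3. The genotype difference was 0.54 at day 11 (SE 0.43, adjusted p = 0.537) and -1.11 at day 0 (SE 0.42, adjusted p = 0.068).

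Several Otx2 values turned on single Nos3-/- arrays. The low value of 8.37 at day 11 is replicate 3, and the high value of 12.60 at day 0 is another array, the day 0 replicate 3. The day 0 difference passed without Nos3-/- day 0 replicate 3 (-1.46, adjusted p = 0.0109) and without Nos3-/- day 11 replicate 3 (-1.11, adjusted p = 0.0234). The day 11 array leaves the day 0 difference itself unchanged and enters only through the spread that all arrays share. The genotype difference in the change over time was 1.65 (SE 0.60, adjusted p = 0.161), and it passed without either of these arrays, at 2.00 (adjusted p = 0.0441) without the day 0 array and 2.13 (adjusted p = 0.02) without the day 11 array. Without the 3 arrays that stand apart, Otx2 was higher in Nos3-/- embryoid bodies by 1.02 (adjusted p = 0.0102), lower in Nos3-/- iPSCs by a difference of -1.07 (adjusted p = 0.0104), and its change over time in Nos3-/- cells turned to 0.36 (adjusted p = 0.434).

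Foxd3 is a forkhead factor that mouse epiblast needs for its maintenance and that also acts in premigratory neural crest. Its lowest, median and highest levels were 7.48, 7.92 and 8.27 in Nos3-/- embryoid bodies, against 6.43, 7.13 and 7.48 in control embryoid bodies. In iPSCs they were 7.61, 8.10 and 8.89 in the Nos3-/- group, against 7.78, 8.13 and 8.46 in the control group. At day 11, 5 of the 6 Nos3-/- arrays lay above every control array and the other tied with the highest control, and at day 0 the groups overlapped. The day 11 difference was 0.95 (SE 0.19, 1.94-fold, adjusted p = 0.00119), and it stayed between 0.88 and 1.04 and past the threshold in all 31 omissions of 1 array. The day 0 difference was 0.05 (SE 0.19, adjusted p = 0.886), and it turned to -0.07 and -0.08 without Nos3-/- day 0 replicate 1 or 4.

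Over time Foxd3 fell by 1.20 in control cells (SE 0.17, 2.29-fold, adjusted p = 2.465e-06), where the days did not overlap, as for 6.52% of all genes. In Nos3-/- cells its change was -0.30 (SE 0.21, adjusted p = 0.304). The genotype difference in the change over time was 0.90 (SE 0.27, adjusted p = 0.0911), and it passed without Nos3-/- day 0 replicate 1 (adjusted p = 0.044) or 4 (adjusted p = 0.0464) or without Nos3-/- day 11 replicate 3 (adjusted p = 0.0455). Foxd3 lies on chromosome 4, from 99656299 to 99658671. Its RefSeq promoter window, 250 bases before to 50 after the gene's start, is shown because Foxd3 was called at day 11, and that of Zic5 is printed further on as the neighbour of Zic2. The window is chr4:99656049-99656348 on the plus strand:

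Foxd3: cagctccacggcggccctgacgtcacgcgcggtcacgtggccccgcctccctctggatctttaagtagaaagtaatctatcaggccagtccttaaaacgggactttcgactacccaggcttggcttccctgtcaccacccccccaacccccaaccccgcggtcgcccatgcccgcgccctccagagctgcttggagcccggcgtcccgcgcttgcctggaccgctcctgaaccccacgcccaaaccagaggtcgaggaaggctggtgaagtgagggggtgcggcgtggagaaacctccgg

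That window has a GC content of 65.7% and 25 CpG dinucleotides, and 83% of the 32851 promoter windows in the table had a lower GC content. A search on both strands for TAATCC (bound by OTX factors), ATTGTT (SOX), ATGCAAAT (the octamer of POU factors), CTTTGAT (LEF and TCF) and CCAAT (the CCAAT box) found none of these letters in it. Of all windows, 7.06% hold the first, 10.7% the second, 1.74% the third, 3.73% the fourth and 37.4% the last.

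Zic2 and Zic5 encode zinc-finger factors of the epiblast, neural plate and neural crest, and the genes lie beside each other on chromosome 14, with 9.72 kb between them. Zic5 spans 122459160 to 122465658 and Zic2 spans 122475384 to 122480328. Zic2 levels were 8.84, 9.41 and 10.03 (lowest, median and highest) in Nos3-/- embryoid bodies, against 7.44, 8.28 and 9.59 in control embryoid bodies. In Nos3-/- iPSCs they were 7.60, 8.96 and 9.33, against 8.52, 9.33 and 9.49 in control iPSCs. The groups overlapped on both days, with 2 Nos3-/- arrays above all controls at day 11 and 1 below all controls at day 0. Zic2 was higher in Nos3-/- embryoid bodies by 1.05 (SE 0.28, 2.07-fold, adjusted p = 0.0137). The call was kept in all 31 omissions of 1 array and lost with the mean of the fibroblast genes as a covariate (1.10, adjusted p = 0.0827). The day 0 difference was -0.36 (SE 0.28, adjusted p = 0.404).

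Zic2 fell by 0.78 in control cells over time (SE 0.25, adjusted p = 0.0139), while its change in Nos3-/- cells was 0.63 (SE 0.31, adjusted p = 0.121). For the genotype difference in the change over time the value was 1.41 (SE 0.39, adjusted p = 0.0691). It passed without control day 11 replicate 2 (1.56, adjusted p = 0.0319) or 6 (1.52, adjusted p = 0.037), or without Nos3-/- day 0 replicate 3 (1.42, adjusted p = 0.0461).

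Zic5 levels were 9.71, 10.37 and 11.65 in Nos3-/- embryoid bodies, against 8.39, 9.74 and 10.46 in control embryoid bodies. In iPSCs they were 9.38, 10.21 and 11.14 in the Nos3-/- group, against 9.43, 10.12 and 10.45 in the control group. Only 1 Nos3-/- array, replicate 3, lay above all controls at day 11, and the groups overlapped on both days. The day 11 difference was 0.86 (SE 0.29, adjusted p = 0.058). It passed in 6 omissions of 1 array, at adjusted p of 0.028 to 0.047. These were Nos3-/- day 11 replicate 6, control day 11 replicates 1, 2 and 6, and Nos3-/- day 0 replicates 1 and 5. The day 0 arrays leave the day 11 difference at 0.86 and enter only through the spread that all arrays share. The lowest value in such omissions was 0.63, without Nos3-/- day 11 replicate 3, and the highest adjusted p was 0.161. Without the 3 arrays that stand apart, the day 11 difference was 0.63 (adjusted p = 0.12). Of the other Zic5 probe sets, 1456140_at gave 0.99 at day 11 (adjusted p = 0.0196) and 1425666_at gave 0.66 (adjusted p = 0.139).

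The remaining Zic5 values of the probe set used did not pass. The genotype difference was 0.16 at day 0 (SE 0.28, adjusted p = 0.76), and the change over time was 0.22 in Nos3-/- cells (SE 0.32, adjusted p = 0.6253) and -0.48 in control cells (SE 0.25, adjusted p = 0.148). The control change passed in 1456140_at, at -0.74 (adjusted p = 0.0179), and was -0.41 in 1425666_at (adjusted p = 0.187). Without Nos3-/- day 11 replicate 3 the change in Nos3-/- cells was -0.01, and without Nos3-/- day 0 replicate 1 the day 0 difference was -0.02. Its genotype difference in the change over time was 0.70 (SE 0.41, adjusted p = 0.386). The Zic5 window, chr14:122465609-122465908 on the minus strand, faces the space it shares with Zic2, and it also held none of the 5 motifs:

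Zic5: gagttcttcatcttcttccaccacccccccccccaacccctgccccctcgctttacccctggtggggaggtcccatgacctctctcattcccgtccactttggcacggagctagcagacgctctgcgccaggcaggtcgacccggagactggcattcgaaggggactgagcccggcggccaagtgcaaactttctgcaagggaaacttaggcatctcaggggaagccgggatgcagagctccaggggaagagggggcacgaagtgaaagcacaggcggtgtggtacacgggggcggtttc

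Its GC content was 62.7% with 15 CpG dinucleotides. Promoter windows of Zic2, Pou3f1 and Sox3 were not used here.

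Sox3 and Sox4 are HMG-box factors, Sox3 an X-linked gene of the SOXB1 group that marks epiblast and neural progenitors, and Sox4 a SOXC gene used in many progenitors. Sox3 lies on chromosome X from 60891366 to 60893430 and Sox4 on chromosome 13 from 28948919 to 28953699. Sox3 levels were 7.37, 8.03 and 8.42 in Nos3-/- embryoid bodies, against 5.94, 7.26 and 7.80 in control embryoid bodies. In Nos3-/- iPSCs they were 6.61, 8.06 and 8.98, against 7.81, 8.60 and 9.20 in control iPSCs. At day 11, 4 Nos3-/- arrays lay above all controls, and at day 0, 2 lay below them. Sox3 fell by 1.31 in control cells over time (SE 0.25, 2.47-fold, adjusted p = 1.665e-04), where the 9 day 11 arrays lay below all 10 day 0 arrays.

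In Nos3-/- cells the change of Sox3 over time was 0.03 (SE 0.32, adjusted p = 0.956), and it turned negative without Nos3-/- day 11 replicate 2 or 4 or without Nos3-/- day 0 replicate 1 or 5, at -0.24 to -0.036. The genotype difference was 0.76 at day 11 (SE 0.29, adjusted p = 0.103) and -0.58 at day 0 (SE 0.29, adjusted p = 0.167), and the genotype difference in the change over time was 1.33 (SE 0.41, adjusted p = 0.0932). Without Nos3-/- day 0 replicate 3 the day 0 difference passed (-0.79, adjusted p = 0.0449), as did the genotype difference in the change over time (1.54, adjusted p = 0.0257). A second Sox3 probe set, 1450485_at, was nearly flat: its differences lay between -0.16 and 0.08 in the 5 comparisons and none passed. Its mean level over all arrays was 5.59, below the array medians of 6.13 to 6.23. At so low a level its values cannot decide whether the differences of the probe set used hold.

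Sox4 levels were 12.46, 12.94 and 13.09 in Nos3-/- embryoid bodies, against 11.64, 12.66 and 13.04 in control embryoid bodies. In Nos3-/- iPSCs they were 11.30, 12.10 and 12.74, against 12.54, 12.76 and 12.99 in control iPSCs. At day 0, 5 of the 6 Nos3-/- arrays lay below every control array, and at day 11 the groups overlapped. Sox4 was lower in Nos3-/- iPSCs by a log2 difference of -0.64 (SE 0.16, 1.56-fold, adjusted p = 0.00812). The call was kept in all 31 omissions of 1 array and lost with the mean of the fibroblast and feeder genes as a covariate (-0.34, adjusted p = 0.288). That covariate cut the day 0 calls over all genes from 3029 to 581. Sox4 rose by 0.77 in Nos3-/- cells over time (SE 0.18, adjusted p = 0.00231), while its change in control cells was -0.13 (SE 0.15, adjusted p = 0.545).

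At day 11 the Sox4 difference was 0.25 (SE 0.17, adjusted p = 0.434). The genotype difference in the change over time was 0.89 (SE 0.24, adjusted p = 0.0511) and narrowly missed the threshold. It passed in 9 omissions of 1 array (Nos3-/- day 11 replicates 3 and 4, control day 11 replicates 1, 6 and 7, Nos3-/- day 0 replicates 1 and 3, and control day 0 replicates 1 and 5), at adjusted p of 0.011 to 0.049, and without the 3 arrays that stand apart (0.82, adjusted p = 0.0356). It also passed in 3 other Sox4 probe sets, at 0.97 in 1419155_a_at (adjusted p = 0.0298), 0.96 in 1419156_at (adjusted p = 0.0379) and 0.66 in 1449370_at (adjusted p = 0.0436), and these 3 were also called lower at day 0. Another, 1419157_at, gave 1.37 (adjusted p = 0.0926), and its change in control cells over time passed, at -0.84 (adjusted p = 0.00795). The remaining 3 Sox4 probe sets lay between -0.06 and 0.17 in the 5 comparisons. Their mean levels were 4.06 and 4.54, below the array medians of 6.13 to 6.23, and 6.31, just above them.

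The Sox4 window, chr13:28953650-28953949 on the minus strand, is shown because it held 4 matches to the letters CCAAT, written in capitals, 3 of them as the reverse complement ATTGG:

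Sox4: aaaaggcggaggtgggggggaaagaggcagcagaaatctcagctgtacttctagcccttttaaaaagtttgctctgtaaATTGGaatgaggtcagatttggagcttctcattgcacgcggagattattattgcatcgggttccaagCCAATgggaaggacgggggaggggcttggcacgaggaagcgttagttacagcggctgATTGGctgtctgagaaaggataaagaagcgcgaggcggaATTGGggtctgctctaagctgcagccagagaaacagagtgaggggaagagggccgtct

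CCAAT was present at least once in 37.4% of all windows, and the share with 4 matches was not counted. The other 4 motifs were not in the Sox4 window. The GC content there was 52%, against a median of 52.7% over all windows.

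Lef1 encodes the HMG-box factor through which beta-catenin switches on Wnt targets, and it lies on chromosome 3 from 131110297 to 131224357. Its levels were 7.96, 9.61 and 9.73 in Nos3-/- embryoid bodies, against 9.15, 9.72 and 10.49 in control embryoid bodies. At day 0 they were 7.58, 8.49 and 9.89 in Nos3-/- iPSCs, against 8.00, 8.32 and 8.65 in control iPSCs. The 6 Nos3-/- iPSC arrays split around the controls, 3 above all 10 of them and 3 below. Lef1 rose by 1.51 in control cells over time (SE 0.25, 2.84-fold, adjusted p = 2.64e-05), where every day 11 array lay above every day 0 array.

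In Nos3-/- cells the Lef1 change was 0.76 (SE 0.32, adjusted p = 0.0702), and it passed without Nos3-/- day 11 replicate 3 (1.03, adjusted p = 0.00733) or without Nos3-/- day 0 replicate 1 (1.01, adjusted p = 0.0113) or 2 (0.90, adjusted p = 0.0394). The genotype difference was -0.47 at day 11 (SE 0.29, adjusted p = 0.379) and 0.28 at day 0 (SE 0.28, adjusted p = 0.541). Without the 3 arrays that stand apart, the day 0 difference was 0.73 (adjusted p = 0.0303). Lef1 was the 1 gene of the 10 with a negative genotype difference in the change over time, at -0.75 (SE 0.41, adjusted p = 0.352).

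The Wnt targets that LEF and TCF factors act on were read beside Lef1. Of 14 measured genes of this list of 16, 2 were higher and 4 lower in Nos3-/- iPSCs, with a median difference of -0.20. The lower ones were Dkk1, a secreted Wnt inhibitor, at -1.71 (adjusted p = 0.0341), the zinc-finger gene Sp5 at -1.60 (adjusted p = 0.00727), the R-spondin receptor gene Lgr5 at -1.09 (adjusted p = 0.0349) and Myc at -0.66 (adjusted p = 0.0364). The higher ones were Notum at 0.54 (adjusted p = 0.0317) and Cdx1 at 0.44 (adjusted p = 0.00409). At day 11 none was higher and 2 caudal homeobox genes were lower, Cdx2 at -1.50 (adjusted p = 9.972e-04) and Cdx4 at -0.64 (adjusted p = 0.0149). Cdx1 averaged 5.30 in Nos3-/- and 4.86 in control iPSCs, and Cdx4 3.12 in Nos3-/- and 3.76 in control embryoid bodies. These levels were below the array medians of 6.13 to 6.23.

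Sall2 encodes a spalt-like zinc-finger factor related to the pluripotency gene Sall4, and it lies on chromosome 14 from 52311177 to 52328670. Its levels were 8.01, 8.89 and 9.60 in Nos3-/- embryoid bodies, against 8.01, 8.41 and 9.24 in control embryoid bodies. In Nos3-/- iPSCs they were 5.91, 7.33 and 7.82, against 7.19, 7.54 and 8.21 in control iPSCs. Genotypes overlapped on both days, while in Nos3-/- cells every day 11 array lay above every day 0 array, as for 7.83% of all genes. Sall2 rose in both genotypes, by 1.74 in Nos3-/- cells (SE 0.26, 3.33-fold, adjusted p = 1.441e-05) and by 0.85 in control cells (SE 0.20, 1.80-fold, adjusted p = 0.00177).

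The difference between these 2 rises of Sall2 was 0.89 (SE 0.33, adjusted p = 0.164) and did not pass. The genotype difference was 0.45 at day 11 (SE 0.24, adjusted p = 0.275) and -0.44 at day 0 (SE 0.23, adjusted p = 0.195). Without the 3 arrays that stand apart, the day 11 difference was 0.63 (adjusted p = 0.0172).

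Cdh2 encodes N-cadherin, which replaces E-cadherin (Cdh1) as cells leave the epiblast and which fibroblasts and cardiomyocytes also carry. Its levels were 9.17, 10.79 and 11.37 in Nos3-/- embryoid bodies, against 10.12, 11.46 and 11.84 in control embryoid bodies. In Nos3-/- iPSCs they were 8.28, 9.33 and 10.90, against 9.87, 10.90 and 11.42 in control iPSCs. At day 0, 5 of 6 Nos3-/- arrays lay below every control array. The day 0 difference was -1.32 (SE 0.34, 2.50-fold, adjusted p = 0.00897), and the probe set 1449244_at gave -1.32 as well (adjusted p = 0.0191). With the fibroblast and feeder mean as a covariate it was -0.76 (adjusted p = 0.271) and no longer passed. That covariate cut the day 0 calls over all genes from 3029 to 581.

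Cdh2 rose by 1.16 in Nos3-/- cells over time (SE 0.38, adjusted p = 0.0214), a call lost without Nos3-/- day 11 replicate 2 (1.05, adjusted p = 0.055) or 6 (1.01, adjusted p = 0.0574) or without Nos3-/- day 0 replicate 5 (0.93, adjusted p = 0.0755). Fitted with only the Nos3-/- arrays, this rise had an adjusted p of 0.073. Its change in control cells was 0.42 (SE 0.30, adjusted p = 0.301), its genotype difference at day 11 was -0.58 (SE 0.35, adjusted p = 0.36), and its genotype difference in the change over time was 0.74 (SE 0.49, adjusted p = 0.461). In the E-cadherin gene Cdh1 that last difference was 0.64 (SE 0.16, adjusted p = 0.0406), with 0.43 at day 11 (adjusted p = 0.012).

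Markers of other cells moved with the same groups. The mean of 19 fibroblast and feeder genes ranged from 8.21 to 9.27 in Nos3-/- embryoid bodies, 8.83 to 10.15 in control embryoid bodies, 9.94 to 10.86 in Nos3-/- iPSCs and 10.24 to 11.60 in control iPSCs. Of these 19 genes, 7 were lower and none higher in Nos3-/- iPSCs, Col1a1 at -1.26 and Col5a2 at -1.24 among them, and 9 were lower and 2 higher at day 11. With this mean as a covariate over all arrays, neither Sox4 nor Cdh2 passed at day 0, as given above. Calls over all genes at day 0 fell from 3029 to 581 with it, so the loss is not particular to these 2 genes. In the same fit the day 11 differences of Pou3f1 (1.96, adjusted p = 0.0016) and Foxd3 (0.84, adjusted p = 0.0486) passed, as did that of Sox4 at 0.67 (adjusted p = 0.0266). The control changes of Pou3f1, Sox3 and Zic2 no longer passed (adjusted p = 0.329, 0.171 and 0.29), nor did that of Pou3f1 in Nos3-/- cells (adjusted p = 0.225).

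The mean of 12 yolk-sac and gut endoderm genes ranged from 5.94 to 8.20 in Nos3-/- embryoid bodies, 8.16 to 12.12 in control embryoid bodies, 5.93 to 7.73 in Nos3-/- iPSCs and 6.89 to 9.37 in control iPSCs. At day 11, 10 of the 12 were lower in Nos3-/- embryoid bodies, Afp by a log2 difference of -3.84 and Cubn by -4.15, and none was higher. The part of these cells in the day 11 differences of Pou3f1, Foxd3 and Zic2 was not tested. Of 18 core and naive pluripotency genes, 5 were higher in Nos3-/- embryoid bodies, Fgf4 at 2.85 (adjusted p = 2.274e-06), Fbxo15 at 2.54 (adjusted p = 9.775e-04), Nanog at 1.25 (adjusted p = 0.0176), Sox2 at 1.20 (adjusted p = 0.0153) and Pou5f1 at 0.71 (adjusted p = 0.0143). At day 0, 6 were higher, Fbxo15 at 2.56, Dppa3 at 1.59 and Prdm14 at 1.50 the largest of them, and none was lower on either day. Of 10 cardiomyocyte genes 1 was lower at day 11, Ryr2 at -1.29, and of 6 endothelial genes Tek was lower at day 11 at -1.27 and Pecam1 higher at day 0 at 0.86. Pecam1 averaged 5.81 in Nos3-/- and 4.95 in control iPSCs, below the array medians of 6.13 to 6.23. None of 8 immune genes passed in either genotype comparison.

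A list of 18 other formative and primed genes, of which 17 were measured, was read beside the 10. In Nos3-/- embryoid bodies 6 of the 17 were higher and none lower. Fgf5, the growth factor that marks primed epiblast, had a difference of 1.72 (adjusted p = 0.042), the Nodal coreceptor gene Tdgf1 1.52 (adjusted p = 5.749e-06), the kinase gene Pim2 1.26 (adjusted p = 0.016), the chromatin factor gene Utf1 1.02 (adjusted p = 0.0151), the bHLH factor gene Tcf15 0.60 (adjusted p = 0.0324) and the ligand gene Nodal 0.58 (adjusted p = 0.0171). The median was 0.33 over the 17.

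At day 0 the same list had 1 gene higher, Tcf15 at 0.97 (adjusted p = 4.347e-04), and 2 lower, Sox11 at -0.88 (adjusted p = 0.013) and the FGF signalling inhibitor gene Spry4 at -0.80 (adjusted p = 0.00102). For the genotype difference in the change over time, 15 of the 17 were positive with a median of 0.44, and the 1 called was Fgf5 at 3.05 (SE 0.76, adjusted p = 0.0423). Fgf5 averaged 9.97 ± 0.70 in Nos3-/- embryoid bodies, 8.26 ± 1.20 in control embryoid bodies, 10.46 ± 1.67 in Nos3-/- iPSCs and 11.79 ± 0.67 in control iPSCs. Its Nos3-/- iPSC values ran from 7.85 to 12.83. The Fgf5 call was not read without the 3 arrays that stand apart, so it may rest on them. Over time 7 of the 17 fell and 1 rose in control cells, and 3 fell and 3 rose in Nos3-/- cells.

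**Figure D3:**
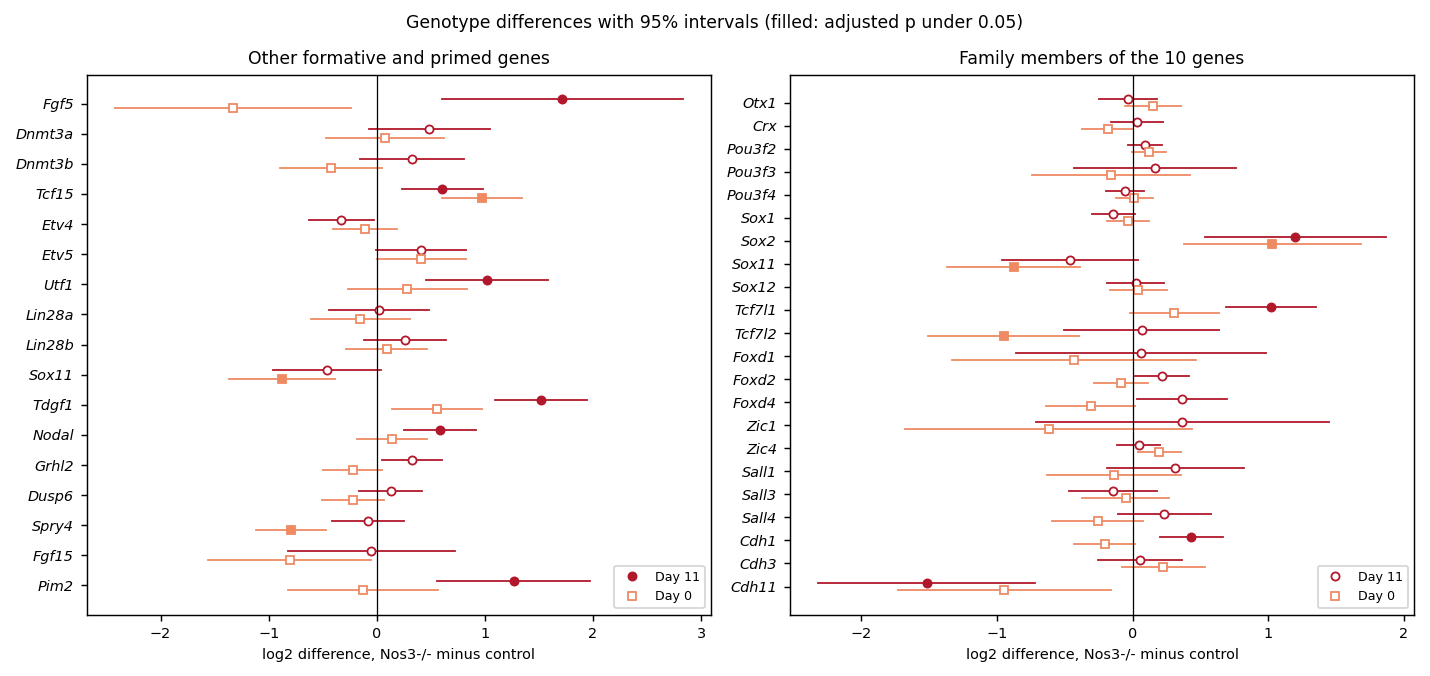
Log2 difference, Nos3-/- minus control, with 95% intervals, for 17 other formative and primed genes and for 22 family members of the 10 genes, at day 11 (red circles) and day 0 (orange squares); filled symbols passed an adjusted p under 0.05. Tdgf1 and Tcf7l1 were higher at day 11, at 1.52 and 1.02, and Sox11 was lower at day 0, at -0.88.

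Family members of the 10 genes were read beside the shares of all genes called. These shares were 9.7% at day 11 (4.41% higher, 5.29% lower) and 16.6% at day 0 (9.17% higher, 7.47% lower). Of 22 measured of 24, 3 were higher and 1 lower at day 11: the SOXB1 gene Sox2 at 1.20, the TCF gene Tcf7l1 at 1.02 (adjusted p = 6.043e-05), Cdh1 at 0.43 and the cadherin gene Cdh11 at -1.52 (adjusted p = 0.0104). At day 0, Sox2 was higher at 1.03 (adjusted p = 0.0264), and Sox11 at -0.88 and the TCF gene Tcf7l2 at -0.95 (adjusted p = 0.0174) were lower. None of the measured OTX, POU3, FOXD, ZIC or SALL relatives passed in either genotype comparison. Otx1, Crx, Pou3f3, Pou3f4, Foxd2, Foxd4 and Zic4 averaged below the array medians of 6.13 to 6.23 in every group. At so low a level, not passing decides little. In Nos3-/- embryoid bodies Zic1 averaged 6.18, and Sall4 (12.26), Sall1 (8.85), Foxd1 (7.00), Pou3f2 (6.66) and Sall3 (6.61) lay above these medians.

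Neural and neural crest genes were read because the 10 genes also act there. Of 21 measured neural ectoderm genes, 1 was higher at day 11, Stmn2 at 1.17 (adjusted p = 8.8e-04), and none lower. At day 0, En2 was higher at 1.02 (adjusted p = 3.343e-04), and Nes at -0.58 (adjusted p = 0.0181) and En1 at -0.42 (adjusted p = 0.0226) were lower. Both En1 and En2 averaged below the array medians of 6.13 to 6.23 in Nos3-/- and in control iPSCs. Of 12 neural crest genes, none was higher and 6 were lower in Nos3-/- embryoid bodies, the zinc-finger factor gene Snai2 at -1.99 (adjusted p = 1.504e-05), the endothelin receptor gene Ednrb at -1.82 (adjusted p = 0.00579) and Msx2 at -1.32 (adjusted p = 0.0182) the largest. The neural crest list had a median of -0.59 at day 11. Within it, Sox10 averaged 6.94 in Nos3-/- and 7.00 in control embryoid bodies, and Pax3 6.33 and 6.37. Foxd3, Zic2 and Zic5, which also act in neural crest, had differences of 0.95, 1.05 and 0.86, the last not called. The part of neural crest cells in these differences was not tested. Of 13 measured streak and early mesoderm genes, 5 were lower at day 11 and 4 at day 0, Pdgfra at -2.19 (adjusted p = 9.548e-06) and Lhx1 at -3.08 (adjusted p = 0.00831) the largest on each day.

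The gene outside the 10 whose level went most closely with each member over the 31 arrays was taken by Pearson's r, with Spearman's rho beside it, as a description over arrays that share group, culture and processing. It was the Wnt receptor gene Fzd8 for Otx2 (r = 0.881, rho = 0.939), Pim2 for Pou3f1 (0.833, 0.819), Fgf5 for Sox3 (0.848, 0.851), Tcf12 for Sox4 (0.897, 0.846) and Bcor for Lef1 (0.861, 0.813). It was Pnp for Foxd3 (0.893, 0.867), Rimbp3 for Zic2 (0.817, 0.808), Psip1 for Zic5 (0.867, 0.813), Tead2 for Sall2 (0.927, 0.930) and Chsy1 for Cdh2 (0.909, 0.888). Pim2 and Fgf5 are themselves on the list of other formative and primed genes.

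**Figure D4:**
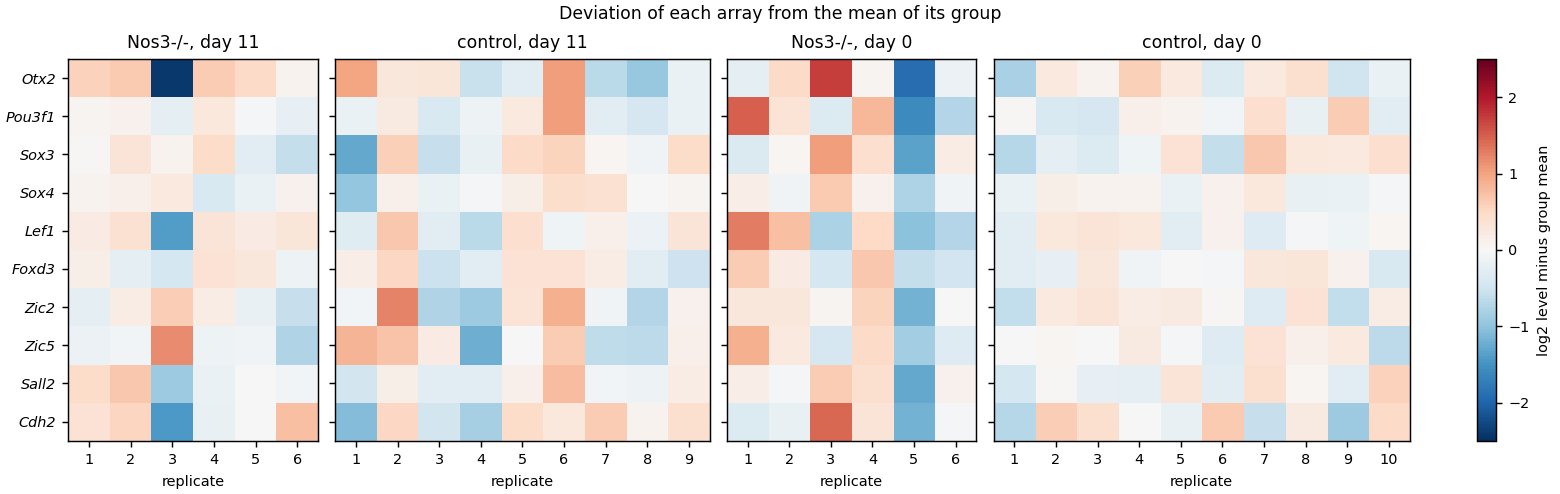
Level of each of the 10 genes on each array minus the mean of its group (log2, red above and blue below), with the replicates of each group side by side. Nos3-/- day 0 replicate 5 is blue for all 10 genes, and Nos3-/- day 11 replicate 3 is blue for Otx2, Lef1 and Cdh2 and red for Zic5.

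Some Nos3-/- arrays held the extremes of their group for many of the 10 genes. Nos3-/- iPSC replicate 5 had the lowest level of its group for 10 of the 10 genes, and their mean there was 8.12, against 9.07 to 9.73 on the other 5 arrays of the group. On that array the mean of the core and naive pluripotency genes was 11.34, the highest of its group. Replicate 1 had nearly the same core and naive mean, 11.30, with a mean of 9.69 over the 10 genes. Nos3-/- iPSC replicate 3 had the highest level for 5 of the 10 genes, with a mean of 9.65 over the 10, and its core and naive mean was 8.57, the lowest of its group. Nos3-/- embryoid body replicate 3 had the lowest level for 6 genes and the highest for 3, and its cardiomyocyte mean was 5.63, against 7.30 to 9.69 on the other 5.

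The SD between arrays at day 0 was larger in the Nos3-/- group than in the control group for 10 of the 10 genes, as it was for 66.9% of all genes. At day 11 it was larger for 4 of the 10, against 51.4% of all genes. The SD of Pou3f1 was 0.19 in Nos3-/- embryoid bodies, 0.46 in control embryoid bodies, 1.11 in Nos3-/- iPSCs and 0.34 in control iPSCs. Without the 3 arrays that stand apart, 5 of the 10 genes were called at day 11, 5 at day 0 and 2 for the genotype difference in the change over time, against 3, 2 and 1 with all arrays. Over all 18194 genes the same omission gave 2631 calls at day 11, 3119 at day 0 and 605 for the genotype difference in the change over time, against 1764, 3029 and 225 with all arrays.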

How the data were processed

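RNA of 31 mouse samples, 1 Affymetrix array each, was analysed from the deposited log2 intensities. Per the submitters' processing notes, the authors summarised the arrays with RMA, for which no software version is given, and the array design and any batch or scan date are not given in the sources used here. Total RNA was labelled as biotinylated cRNA, per the labels' protocols. The table held 45101 probe sets, of which 34958 carried 1 gene symbol, 932 several and 9211 none, from the platform annotation, and 34754 of the first kind were found in a RefSeq gene table (GRCm38.p6). Values ran from 2.32 to 15.01 with 0 missing, and 0 pairs of arrays were identical (highest correlation 0.997).

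Each gene was read from its probe set with the highest mean, which gave 18194 genes. All were fitted together with limma 3.58.1 in R 4.3.3, with 1 mean per group and an empirical Bayes variance (27 residual and 2.80 prior degrees of freedom), and 5 contrasts were tested two-sided with Benjamini-Hochberg adjustment over all genes at 0.05. Other probe sets of the 10 genes were fitted in the table of all probe sets. Standard errors and 95% intervals are those of this fit, ± gives the SD between arrays, and a mean of a list is the mean of its log2 values. The fit was tested on simulated data. Levels of different genes were not compared, since each probe set has its own response, and low levels were only set against the array medians.

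The 10 genes and 12 lists of other genes were chosen with earlier results of these data known. Of 180 list entries, 172 were used, each through a probe set with 1 symbol alone, and the others were not used here. The text may name the 10 genes, their other probe sets, Nos3, the 3 highest and 3 lowest passing genes of every list in each genotype comparison and in the genotype difference in the change over time, all family members of the 10 genes, and the 1 gene most like each of the 10. Pou5f1, Utf1, Nodal and Myc fall outside this and were named, after their values were seen, to complete counts. Same-numbered arrays were checked for pairing by the correlation of their deviations from the group means, which passed 0.1 in 10 of 27 pairs (range -0.27 to 0.35). Differently numbered arrays were not read beside them, so this check cannot exclude shared lines or batches. The numbers were not used as pairs in the main fit. Alternatives were quantile normalization, median centring, a filter on low levels, averaging all probe sets of a gene, dropping those marked as cross-hybridizing (_x_at and _s_at), trend and robust eBayes, array weights, fitting the compared groups alone, a replicate block, the fibroblast mean as a covariate, and each array left out in turn. Leaving out the 3 arrays that stand apart was added after seeing the data.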

Additional observations from a re-analysis of the deposited data

Results flagged for a closer look

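In 40 sets of 1 gene and 1 group, the highest or lowest array stood far from the others by Dixon's test in 7, where chance gives about 1 in 20, or 2. Nos3-/- day 11 replicate 3 accounts for 3 of them: Otx2 at 8.37 against 10.88 to 11.44 on the other 5 arrays, Lef1 at 7.96 against 9.56 to 9.73, and Zic5 at 11.65 against 9.71 to 10.41. Nos3-/- day 0 replicate 5 accounts for a further 2: Zic2 at 7.60 against 8.77 to 9.33, and Sall2 at 5.91 against 7.14 to 7.82. In control embryoid bodies, Pou3f1 was 9.58 in replicate 6 against 8.12 to 8.79 on the other 8, and Sox4 was 11.64 in replicate 1 against 12.44 to 13.04.

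The change of Pou3f1 over time differed between the genotypes by 1.64 on the log2 scale (limma, adjusted p = 0.0408), and the arrays and settings that end this call are given above and below.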

How the results depend on the processing

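Apart from omissions of 1 array, the log2 differences of the 10 genes kept direction and side of the threshold in 493 of 550 values under the alternatives, 14 lost a call, 30 gained one and 13 changed sign. In omissions of 1 array this was so for 1478 of 1550, with 31 lost, 30 gained and 11 changed in sign. Fitting the replicate number as a block changed the count of the 10 genes called for the genotype difference in the change over time to 0, with Pou3f1 at 1.67 (adjusted p = 0.0725), ended the day 11 call of Zic2 (0.95, adjusted p = 0.0746), and changed no other call of the 10. For the genotype difference in the change over time, 2 genes were called after quantile normalization, with genes above the median level, with all probe sets of a gene averaged or without the 3 arrays, 5 with array weights and 4 with the covariate. At day 11, 6 genes were called with array weights and 5 without the 3 arrays. At day 0, 0 were called with the covariate and 5 without the 3 arrays, and over time in Nos3-/- cells 2 with only the groups compared.

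Leaving out 1 array gave counts of 3 to 4 at day 11, 2 to 4 at day 0, 2 to 5 over time in Nos3-/- cells, 6 to 7 over time in control cells and 0 to 5 for the genotype difference in the change over time. Values that changed sign were none of them called. With the covariate these were Foxd3 (-0.024) and Zic5 (-0.10) at day 0, Cdh2 at day 11 (0.20), Zic5 over time in Nos3-/- cells (-0.43) and Sox4 over time in control cells (0.52). In Nos3-/- cells over time, Sox3 was -0.023 with median centring, -0.041 with probe sets averaged, -0.13 with array weights and -0.061 without the 3 arrays, Otx2 was 0.18 and 0.36 under the last pair, and Zic5 was -0.15 and -0.33. In omissions of 1 array, Foxd3 at day 0 ranged from -0.082 to 0.17, Zic5 at day 0 from -0.02 to 0.33, and over time in Nos3-/- cells Otx2 ranged from -0.46 to 0.41, Sox3 from -0.24 to 0.24 and Zic5 from -0.011 to 0.40.

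Calls over all genes moved by over 1.5 times from 1764 at day 11 to 1121 (genes above the median level, fewer genes tested), 3939 (array weights) and 974 (covariate), and from 3029 at day 0 to 581 (covariate) and a range of 1471 to 4142 without 1 array. Over time they moved from 5658 in Nos3-/- cells to 3756 (genes above the median level) and 3679 (only the groups compared, fewer samples), and from 6227 in control cells to 3835 and 2907 (covariate). For the genotype difference in the change over time they moved from 225 to 1590 (array weights), 762 (covariate), 605 (without the 3 arrays) and 88 to 745 without 1 array. Except where the alternative itself tests fewer genes or samples, the cause was not tested. Scanner files were not used here, so background correction, probe detection and slide could not be varied.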
